A study of Mus musculus with 2 samples.

Results

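S100a8, S100a9, Ngp, Camp, Chil3, Lcn2, Ltf, Mpo, Elane and Mmp9 encode calprotectin and the granule proteins of neutrophils. They were chosen by name, with their values in this comparison known, and each probe set annotated to exactly 1 of these symbols was taken, signals near background included. This gave 10 genes of 18193 with a probe set of their own, and 11 probe sets of 45037 that are no controls. The study measured total RNA of mouse skeletal muscle on 2 Affymetrix Mouse Genome 430 2 arrays, and the comparison asks which muscle transcripts differ when the histone demethylase Jhdm2a, now named Kdm3a, is missing. The wild-type group was 1 array with RNA combined from 3 wild-type mice, and the null group 1 array with RNA combined from 3 Jhdm2a null mice. All of the animals were males of 3 months, from 129 ES cells with 4 generations of backcrossing onto C57BL/6, and neither group had another treatment in the labels. The sources used here do not say which muscle was taken, how the allele was made or whether blood was washed out of the tissue. With 1 array per genotype there is no replicate and no test. Every value describes these pools, and the number of arrays limits the precision. Fewer cells of a type and less RNA per cell cannot be told apart in such bulk RNA.

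Neutrophils are short-lived phagocytes that mature in the bone marrow and carry preformed antimicrobial proteins in granules. Granule genes are transcribed in sequence during maturation: those of primary (azurophil) granules in early precursors, those of specific granules next and those of gelatinase granules later. S100A8 and S100A9 pair to form calprotectin, which binds calcium and withholds zinc and manganese from microbes, and their messages stay abundant in mature neutrophils. Healthy skeletal muscle holds few neutrophils outside its vessels, and blood and marrow are the usual places to find these transcripts.

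The arrays were scaled alike, with a median signal of 112 on each. A floor of 182, the 60th percentile of all non-control signals, stands in for the detection calls that the table used here does not carry. A gene under the floor on 1 array has only a bound, which is its signal on the other array divided by that floor, and such values are given as at least so many fold. Log2 ratios of probe sets of the same gene had a pooled SD of 0.29 over 3719 genes, which is a technical error and covers no variation between mice. Muscle transcripts were present on both arrays: all 12 muscle fibre markers were above the floor on both, with a median log2 ratio of 0.17. Ckm, the muscle creatine kinase, had 0.22. These markers do not show that the 2 pools held the same mix of tissues. By the counting rule given below, 7 of 8 brown adipocyte and 6 of 12 hepatocyte markers were lower on the null array. The Kdm3a probe set read 406 on the wild-type and 488 on the null array, so it gives no check of the genotype labels, and the arrays are called wild-type-labelled and null-labelled below.

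The promoters of the 4 genes with the largest ratios or bounds are shown first, beside the primary granule gene Mpo, because C/EBP factors and PU.1 are known regulators of granule genes. The sequences are from RefSeq on GRCm38.p6 and run 5′ to 3′ from 250 bases before to 50 bases after the start site. Capitals mark matches on either strand to the C/EBP motif TTGCNNAA, the PU.1 core GAGGAA or, for comparison, the GATA core AGATAA. A promoter was found for 9 of the 10 genes, all but Mmp9.
S100a8, chr3:90668821-90669120, plus strand: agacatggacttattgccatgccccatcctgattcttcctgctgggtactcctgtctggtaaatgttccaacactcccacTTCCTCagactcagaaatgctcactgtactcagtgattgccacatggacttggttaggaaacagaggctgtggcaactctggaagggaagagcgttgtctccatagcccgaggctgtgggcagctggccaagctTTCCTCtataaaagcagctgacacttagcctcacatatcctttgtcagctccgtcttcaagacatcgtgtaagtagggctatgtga
S100a9, chr3:90695672-90695971, minus strand: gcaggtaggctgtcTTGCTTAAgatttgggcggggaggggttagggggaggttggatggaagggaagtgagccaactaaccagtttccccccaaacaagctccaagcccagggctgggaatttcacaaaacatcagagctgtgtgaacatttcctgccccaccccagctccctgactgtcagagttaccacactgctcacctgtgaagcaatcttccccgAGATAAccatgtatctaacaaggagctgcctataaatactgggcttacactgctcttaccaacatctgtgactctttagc
Ngp, chr9:110419558-110419857, plus strand: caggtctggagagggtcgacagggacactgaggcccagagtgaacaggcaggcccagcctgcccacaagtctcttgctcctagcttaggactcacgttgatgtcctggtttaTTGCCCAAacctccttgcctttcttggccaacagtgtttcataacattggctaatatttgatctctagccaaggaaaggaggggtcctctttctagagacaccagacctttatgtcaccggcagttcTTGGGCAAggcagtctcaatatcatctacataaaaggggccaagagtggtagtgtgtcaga
Camp, chr9:109849407-109849706, minus strand: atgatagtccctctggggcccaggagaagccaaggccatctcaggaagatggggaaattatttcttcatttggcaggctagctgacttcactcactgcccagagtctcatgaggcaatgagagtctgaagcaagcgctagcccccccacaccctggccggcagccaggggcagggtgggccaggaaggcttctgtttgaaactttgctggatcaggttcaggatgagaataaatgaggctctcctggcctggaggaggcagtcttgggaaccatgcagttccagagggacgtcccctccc
Mpo, chr11:87793534-87793833, plus strand: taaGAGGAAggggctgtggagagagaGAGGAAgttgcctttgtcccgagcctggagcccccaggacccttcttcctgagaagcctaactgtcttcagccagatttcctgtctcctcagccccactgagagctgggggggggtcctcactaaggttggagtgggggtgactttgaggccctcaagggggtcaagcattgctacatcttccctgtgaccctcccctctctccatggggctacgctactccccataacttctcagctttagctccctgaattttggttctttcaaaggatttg

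The calprotectin promoters differed in these letters. That of S100a8 held 2 PU.1 cores, whose leftmost bases lay at -170 and -36, and no C/EBP match. That of S100a9 held 1 C/EBP match at -236 and 1 GATA core at -30. Ngp had 2 C/EBP matches, at -138 and -11, while Camp, its relative on the same chromosome, had no match to any of the 3 motifs in this window. Mpo had 2 PU.1 cores, at -247 and -224. Over all 9 promoters, 4 held the C/EBP motif, 5 the PU.1 core and 3 the GATA core, and no matches overlapped. Of 32851 RefSeq promoters of the same length, 10.8% held the C/EBP motif, 28.3% the PU.1 core and 11.2% the GATA core. The matches are letters in a window and show no binding.

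All 10 genes were brighter on the null-labelled array, and their ratios and bounds covered a wide range. With RNA labelled wild-type, 9 of the 11 probe sets lay under the floor. With RNA labelled null, 10 of the 11 lay above it, at least 1 for each gene. The median ratio over the 11 probe sets, taken from the signals as they stand, was 5.28-fold (log2 2.40), and the range ran from 1.10-fold to 35.2-fold. Of all probe sets, 51.9% were brighter on the null-labelled array, 7.70% were so by 2-fold or more and 2.46% by 4-fold or more, against 10 and 7 of these 11. These genes were chosen with that contrast known, so the background shares stand beside the counts and nothing is read from them.

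**Figure D1:**
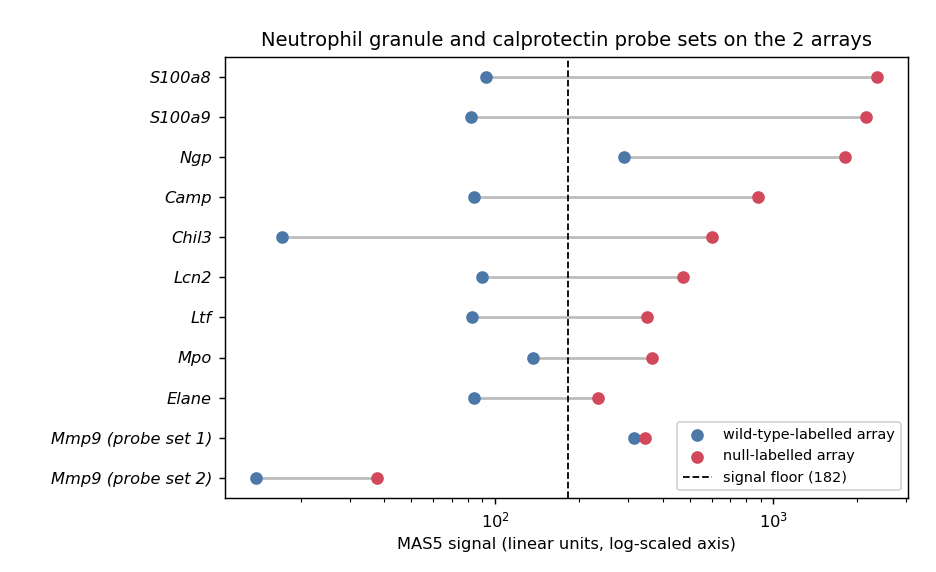
MAS5 signals (horizontal log axis) of the 11 probe sets of the 10 genes, 1 point per array, with a dashed line at the floor of 182. The null-labelled points of S100a8, S100a9 and Ngp lie between 1808 and 2356, while the wild-type-labelled points lie under the floor except for Ngp and the brighter Mmp9 probe set.

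Both calprotectin genes were above the floor only in the null pool. S100a8, the smaller calprotectin subunit, read 92.5 on the array labelled wild-type and 2356 on that labelled null. S100a9, its partner, read 81.9 and 2161. Both were thus near background in the wild-type pool and far above the floor in the null pool. S100a8 was at least 12.9-fold higher there, and S100a9 at least 11.9-fold. Signals of different probe sets depend on the probes, so the levels of these genes are not ranked against each other, and the bounds carry that dependence.

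The 5 specific granule genes were likewise above the floor in the null pool, and 4 of them only there. Ngp, a cathelicidin-related granule protein, read 292 and 1808, and was 6.20-fold higher (log2 ratio 2.63). It is the only one of the 10 genes that combined a ratio of 2-fold or more with signals above the floor on both arrays. Camp, which encodes the antimicrobial peptide precursor cathelicidin, read 84.0 and 882.5, at least 4.84-fold higher. Chil3, the chitinase-like lectin Ym1 that some macrophages also make, read 17.1 and 602, at least 3.30-fold higher, and its unfloored ratio of 35.2-fold rests on a signal deep in the background.

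The other specific granule genes encode proteins that withhold iron from microbes. Lcn2, a lipocalin that captures bacterial siderophores, read 89.5 and 472, at least 2.59-fold higher. Ltf, the iron chelator lactoferrin, read 82.6 and 351, a bound of 1.93-fold that falls short of the 2-fold rule. Neither gene was above the floor in the wild-type pool, so the data give no exact fold for them.

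The primary granule genes were also under the floor in the wild-type pool and above it in the null pool. Mpo, the peroxidase that makes hypochlorous acid, read 137 and 366.5, at least 2.01-fold higher. Elane, the serine protease neutrophil elastase, read 84.0 and 234, a bound of 1.28-fold. Mpo lies just inside the 2-fold rule and Ltf just outside it. Without a floor, on log2(signal + 32), Mpo and Elane were 2.36-fold and 2.29-fold higher, and Ltf 3.34-fold.

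Mmp9, the gelatinase that cleaves denatured collagen and is also made by macrophages and other cells, did not share the pattern. Its brighter probe set read 315 and 346, 1.10-fold higher, and its log2 ratio of 0.13 was smaller than the pooled SD between probe sets of a gene. Its other probe set read 13.8 and 37.5, under the floor on both arrays. The 2 probe sets carry the same target accession. The gene's value rests on the brighter 1 because it alone was above the floor on both arrays.

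By the counting rule, 7 of the 10 genes were at least 2-fold higher and 0 lower, against 0.439% and 2.98% of the 10699 genes that passed the floor on at least 1 array. The 10 genes were chosen with this contrast known. Of them, 8 passed the floor in the null pool only, and the rule could not count those lower. The shares stand beside the counts and nothing is read from them. The rule asks for a mean log2 ratio of at least 1 with 1 sign over the probe sets above the floor on both arrays, or a bound of at least 2-fold. Of the 7, 6 were counted by a bound: S100a8, S100a9, Camp, Chil3, Lcn2 and Mpo. These 6 were among the 11 genes in the whole table that passed on a bound in this direction, while 90 genes passed on a bound in the other. Red cell markers were brighter on the same array, with a median floored log2 ratio of 0.48 over 8 genes, and their part in these counts was not tested.  With the floor at the 75th percentile, 3 of the 10 were counted (S100a8, S100a9 and Ngp), against 0.258% of genes, and at 4-fold 4 were (with Camp), against 0.0467%. Without probe sets whose names end in _x_at, _s_at or _a_at, S100a8 and Lcn2 lost their single probe set and 5 were counted.

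The other 5 genes with such a bound were Dkk3, a secreted protein of the Dickkopf family, the poly(A) polymerase gene Tent5c, the galactosyltransferase gene B3galt1, Exoc3l4 and the homeobox gene Otp. Dkk3 had the largest of these bounds at 3.09-fold, from 176.5 and 562. The other 4 had bounds between 2.01-fold and 2.31-fold. In their brightest probe sets the wild-type-labelled signals lay between 115.7 and 176.5, in 4 of the 5 at 164.9 or more, close under the floor. Those of the 6 neutrophil genes lay between 17.1 and 137. The 2 ranges overlap, and the neutrophil genes were chosen with these signals known, so nothing is read from the difference. At the level of probe sets, 27033 were under the floor in wild-type-labelled RNA. Of these, 4.28% passed it in null-labelled RNA and 0.118% reached 2 times the floor. Among the 9 such probe sets of the neutrophil genes, which were chosen with these signals known, 8 and 6 did. In the reverse direction, 0.552% of the probe sets under the floor in null-labelled RNA reached 2 times it in wild-type-labelled RNA. Of the 11 probe sets, 10 were above the floor in null-labelled RNA and could not enter this share. The other, that of Mmp9 at 13.8 and 37.5, was under it on both arrays, so no comparison is made.

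**Figure D2:**
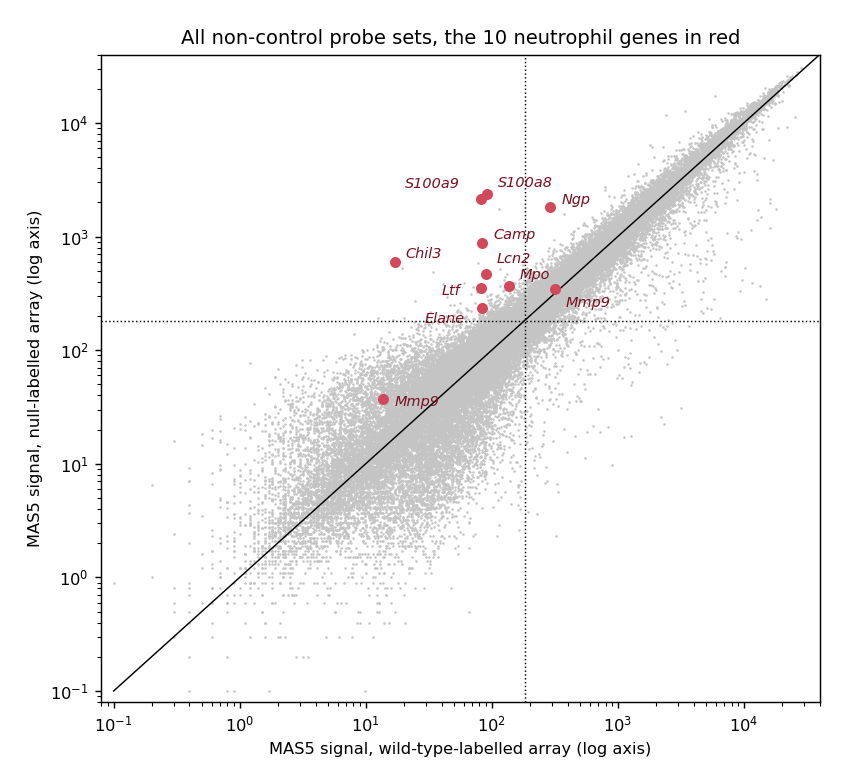
Signals of all non-control probe sets on the wild-type-labelled (horizontal) and null-labelled (vertical) array, both log axes, with the line of equality and dotted lines at the floor. The red points of the 10 genes lie above the line, 8 of them in the upper left field where only the null-labelled signal passes the floor, and the brighter Mmp9 probe set lies next to the line.

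Likeness to S100a8 was measured as the distance between the brightest probe sets in the plane of both arrays' log2 signals, with signals under the floor set to it. S100a9 was nearest at 0.12, then Ngp at 0.78 and Camp at 1.42. The nearest gene outside the set was Tbx1, a T-box transcription factor, at 1.20, with signals of 377 and 1579. Slc4a1, which encodes the band 3 anion exchanger of erythrocytes, followed at 1.53, and then Ccdc85a, Dcun1d1 and the zinc finger gene Zfp385b between 1.68 and 1.78. All 5 were above the floor on both arrays, which S100a8 was not. The genes nearest to Ngp outside the set were again Tbx1, Slc4a1 and Ccdc85a, at 0.42, 0.95 and 0.95, followed by the membrane fusion gene Snap23 at 1.07 and the myelin gene Mal at 1.10. These likenesses rest on 2 arrays only.

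Many other genes of neutrophils could not be compared at this sensitivity. Of 64 listed genes of granules, phagocyte oxidase and surface receptors, 49 had a probe set here and 22 passed the floor on at least 1 array. Of the 22, 0 were counted higher and 1 lower, and 11 had a floored log2 ratio above 0 against 11 below. Of the 10699 genes that passed the floor, 54.8% were above 0 and 0.439% were counted higher. A count of 0 among 22 genes lies near that share and is not read as a result. The median floored log2 ratio was 0.00 for the 22 and 0.04 for all genes. The remaining 27 genes were under the floor on both arrays, so their ratios cannot be read. With no floor, the brightest probe set was brighter on the null-labelled array in 28 of the 49 genes, and by 2-fold or more in 6. Over all probe sets these shares were 51.9% and 7.70%.

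Among the other primary granule genes, Prtn3, the proteinase 3 gene next to Elane, read 130 and 237.5 and passed the floor with null-labelled RNA alone. Ctsg, the cathepsin G gene of the same granules, read 22.1 and 61.7 and stayed under the floor on both. Lyz2, the lysozyme shared with macrophages, read 1081 and 1136.5, a log2 ratio of 0.07. The protease pair next to each other on the chromosome, Elane and Prtn3, thus had bounds of 1.28-fold and 1.30-fold, both in the same direction and both short of the rule.

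In the list of other specific and gelatinase granule genes, 12 of 17 were under the floor on both arrays. Mmp8, the neutrophil collagenase, read 86.6 and 127. Hp, the hemoglobin-binding haptoglobin, was the 1 gene counted, and it went the other way at 7243 and 598, 12.1-fold lower. Liver and fat also make haptoglobin. On the same arrays 6 of 12 hepatocyte markers and 7 of 8 brown adipocyte markers were counted lower, among them Ucp1 from 14885 to 283. Their part in the Hp value was not tested.

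Surface receptors and signalling genes were mostly too dim to compare. Csf3r, the receptor for the granulocyte growth factor G-CSF, read 81.3 and 205, again past the floor only in the null pool. Fpr2, a formyl peptide receptor, read 171 and 313.5, a bound of 1.72-fold. Cxcr2, the main chemokine receptor of mouse neutrophils, and Itgam, the CD11b integrin, were under the floor on both arrays, the first at 6.8 and 12 and the second at 38.8 and 30.6. Ly6g, the standard surface marker of mouse neutrophils, and Cebpe, the factor that drives specific granule genes, had no probe set with 1 symbol here.

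Of the genes that attract neutrophils or regulate their products, 0 were counted higher and many were too dim to compare. Such counts of 0 among few genes lie near the share of 0.439% over all genes, so they are given as a description. Of 15 chemokine and cytokine genes 12 were under the floor on both arrays and 0 were counted, with Cxcl1, a chemokine for neutrophils, at 0.47 ± 0.23 on the log2 scale (SD, 2 probe sets). Of 9 granulocyte transcription factor genes with a probe set 0 were counted higher. Cebpa was counted lower, at 4262 and 485, 8.79-fold; fat and liver express this factor as well. The inhibitors of granule proteases and the receptors and partners of these proteins had 0 genes counted in either direction, over 7 and 5 genes past the floor on at least 1 array. The tissue inhibitor Timp3 stood at 0.43 ± 0.22 on the log2 scale (SD, 4 probe sets). Bsg, a receptor that binds S100A9, had 0.18.

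Other genes of their protein families are given as a description. Over all genes that passed the floor, 0.439% were counted higher, so 0 among few genes lies near that share. Of 11 other S100 genes with a probe set, 0 were counted higher and 2 lower. S100a13 read 2380 and 934.5, 2.55-fold lower. S100b, a glial S100 protein, was 5.49-fold lower in its brighter probe set, at 1506 and 274. Of 11 other lipocalin genes 0 were higher and 1 lower, the retinol carrier Rbp4 at 1941 and 321. Most brown adipocyte markers and some hepatocyte markers were counted lower on the same arrays. Their part in the S100a13, S100b and Rbp4 values was not tested. The 4 other chitinase family genes were under the floor on both arrays, and so were 9 of 14 other matrix metalloproteinases. The remaining 5 had a median log2 ratio of 0.01.

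**Figure D3:**
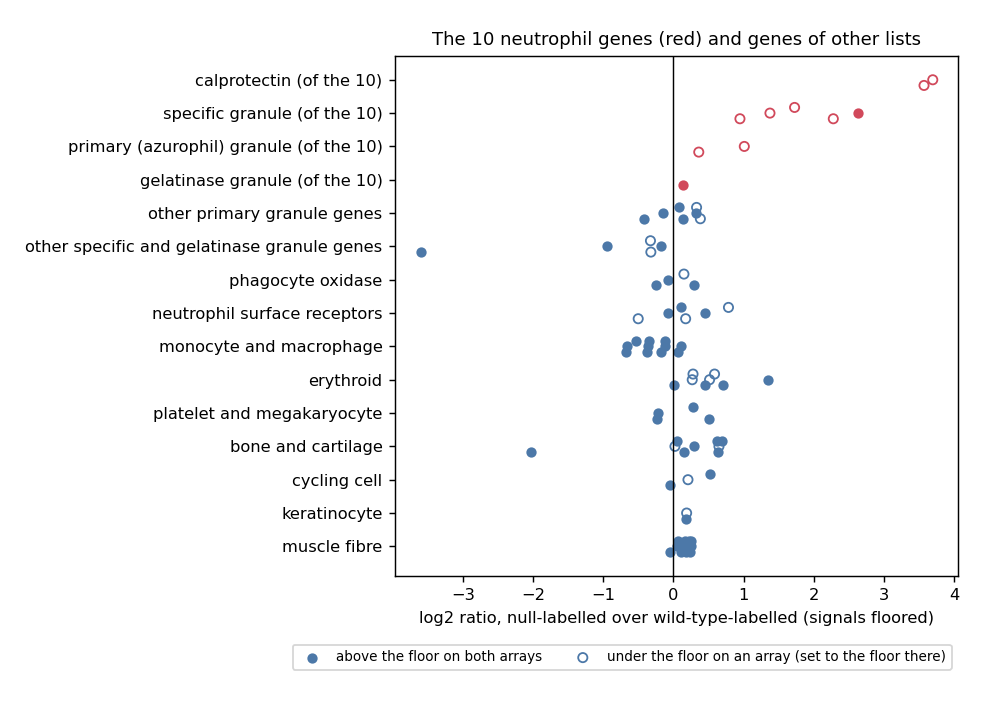
Log2 ratios of null-labelled over wild-type-labelled signal (horizontal), 1 point per gene that passed the floor on at least 1 array, with signals under the floor set to it and averaged over probe sets. The 10 genes (red), which were chosen with these values known, reach 3.69. The other neutrophil genes lie on both sides of 0, and some of them, such as Hp and Lyz2, are also made by other cells. Nothing is read from the difference between these sets.

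The genes beside these 10 on the chromosomes are given as a description, since a count of 0 higher among few genes lies near the share of 0.439% over all genes. The 10 genes lie on 5 chromosomes in GRCm38.p6, where S100a8 and S100a9 are adjacent in the S100 cluster, and Camp, Ngp and Ltf follow each other in that order on another. Up to 5 genes with a probe set were taken on each side, which gave 88 distinct neighbours. Of these 50 were above the floor on either array, 0 were counted higher and 1 was lower, Fam102a beside Lcn2 at a log2 ratio of -1.05. The 48 measured neighbours had a median log2 ratio of -0.05. S100a6 and S100a4, close neighbours of S100a8, had 0.16 and -0.36. Cdc25a and Nme6, the genes on either side of Camp, had -0.29 and 0.78, and Scap and Klhl18 near Ngp had -0.13 and 0.04. Between Camp and Ltf lie 28 other protein-coding genes. Of these 26 had a probe set and 12 passed the floor on at least 1 array. Among the 12, 0 were counted higher and 1 lower, Pth1r, the receptor of parathyroid hormone, at 523 and 121, a bound of -1.52 on the log2 scale. The 11 measured had a median of -0.13.

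**Figure D4:**
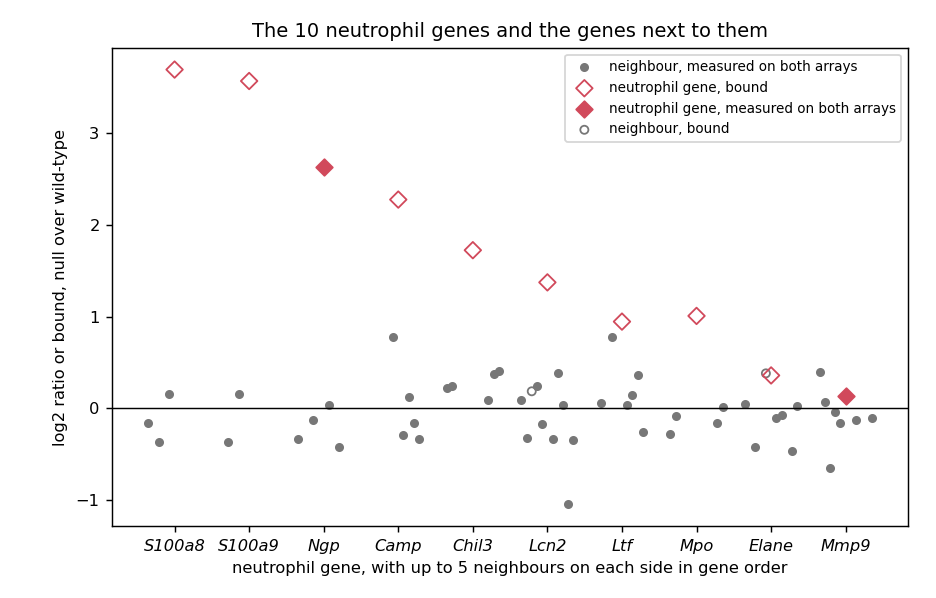
Log2 ratios or bounds (vertical) of the 10 genes (diamonds) and of up to 5 genes on each side in gene order (grey), with those under the floor on both arrays left out. The diamonds of S100a8, S100a9, Ngp, Camp, Chil3, Lcn2, Ltf and Mpo lie above all of the grey points beside them. Those of Elane at 0.36 and Mmp9 at 0.13 each lie below at least 1 of theirs. The 10 genes were chosen with these values known.

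Markers of other blood and marrow cells are given beside the neutrophil genes. Of 14 erythroid markers with a probe set, 8 were above the floor on either array. All 8 had a floored log2 ratio above 0, with a median of 0.48, and 4 passed the floor in null-labelled RNA alone. Hemgn, a nuclear protein of blood precursors, was the largest of these 4, at 24.7 and 273, a bound of 0.58 on the log2 scale. Slc4a1 read 310 and 941 in its brightest probe set, 3.03-fold higher. Alas2, which starts heme synthesis in red cells, read 212 and 346. The summed signal of the list was 7832 and 10120. The globin gene Hba-a1 was under the floor on both arrays in its only probe set with 1 symbol, at 17.6 and 12.4. The beta globin genes of the list had no such probe set, and probe sets with several symbols were not used. Globin levels can therefore not be read here.

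Markers of monocytes and macrophages went the other way. Of 12 with a probe set, 11 were measured, 9 of these were below 0, 0 were counted in either direction, and the median was -0.35. The summed signal was 9993 and 8142. All 5 eosinophil markers and all 7 T and NK cell markers were under the floor on both arrays, as were 8 of 10 B cell markers, 6 of 8 mast cell and basophil markers and 9 of 11 keratinocyte markers. Keratinocytes can make S100a8 and S100a9 too. Of their keratins, Krt14 was under the floor in each probe set, and Krt5 read 130 and 207, past the floor in the null pool alone. The 2 keratinocyte markers past the floor on at least 1 array both had a floored log2 ratio above 0, with a median of 0.18. Their part in the neutrophil values was not tested.

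Platelet and cycling cell markers had 0 genes counted, over 4 and 3 genes past the floor on at least 1 array. With so few genes, 0 lies near the shares of 0.439% higher and 2.98% lower over all genes. For bone, 13 markers had a probe set and 9 were above the floor on either array, with a median floored log2 ratio of 0.29. Of these 9, 8 had a ratio above 0 and 1 below, against 54.8% above 0 over all genes. Dmp1, an osteocyte matrix protein, was 2.38-fold higher in the 1 of its 3 probe sets with both signals past the floor, at 203 and 482.5. Acp5, the acid phosphatase of osteoclasts and macrophages, was 4.10-fold lower, at 1946 and 475. The summed bone signal was 13003 and 12580, most of it from the collagen gene Col1a1 at 9055 and 9133. The part of bone marrow or bone transcripts in the neutrophil values was not tested.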

How the data were processed

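The authors deposited 1 linear MAS5 intensity for each probe set and array. The algorithm's name comes per the submitters' processing notes, which carry no version in the sources used here. Both columns had a 2% trimmed mean of 500 as deposited, and setting them to a common mean changed nothing. With 64 controls left out, GEO's platform annotation pairs 34945 of 45037 probe sets with 1 symbol, 932 with several and 9160 with none, and only the first kind entered gene values. Log2 ratios (null over wild-type) were averaged over a gene's probe sets above the floor on both arrays.

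No test between genotypes was run, since 1 array per genotype leaves no residual degrees of freedom. The counting rule was tested on simulated data. The simulated noise was the same at all signal levels, so that test does not cover any extra noise near the floor. Genes and lists were chosen with earlier results of these data known. Named genes are the 10, those counted in each list (up to 4), 12 fixed markers, the most alike genes, the largest bounds and the neighbours. Fpr2, Lyz2, Mmp8, Cxcl1, Timp3, Bsg, Hba-a1, Hemgn, Krt14, Krt5, Col1a1, Fam102a, Pth1r, Cd177, Slpi and the immunoglobulin genes were named after their values were seen. Motifs were searched with Python 3.11.15, and loess used statsmodels 0.14.6 with a span of 0.4.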

Additional observations from a re-analysis of the deposited data

How the results depend on the processing

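The 11 alternatives changed the scaling (values as deposited, quantile normalization, median log2 ratio set to 0, loess), the floor, the probe sets or the fold. Over the 10 neutrophil genes 84 values were recomputed and 0 were below 0. A bound in this direction cannot be below 0, so for genes with a bound the rule fixed the sign. The count of 7 genes higher became 3 with the floor at the 75th percentile and 4 at 4-fold, and otherwise stayed between 5 and 9. Mpo, at 2.01-fold, was lost under loess and with the median ratio set to 0. A higher floor shrinks every bound by construction. Over all genes, the 47 higher became 73 and 19 with the floor at the 50th and 75th percentiles, 174 with no floor and a pseudocount of 32, 375 at 1.5-fold and 5 at 4-fold. The 319 lower became 209 at the 75th percentile, 536 with no floor, 763 at 1.5-fold and 103 at 4-fold. Of the other neutrophil genes, 0 were higher in the main setting, 3 with no floor (Cd177, Csf3r and Slpi) and 1 at 1.5-fold (Fpr2). No paired analysis was possible because each genotype has 1 array. Wild-type-labelled signals under the floor limit 8 of the 10 genes to a bound.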

Other observations

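Some immunoglobulin probe sets differed between the arrays, in a look made after the values were seen. Of 56 probe sets of immunoglobulin chains, 47 were under the floor on both arrays, and of the other 9, 7 were brighter in the null pool and 2 in the wild-type pool. A probe set for the kappa light chain constant region, which carries 4 other symbols as well, read 115 in the pool labelled wild-type and 1750 in that labelled null. The 2 further probe sets with the same symbols read 34.3 and 484.5, and 299 and 1764. Igha, the heavy chain of IgA, read 19.5 and 530, 78.4 and 583, and 226 and 527 in its 3 probe sets. Jchain, which joins IgA and IgM units, read 176 and 325. Ighm, the heavy chain of IgM, went the other way in its brightest probe set, from 1366 to 763. Of 13 probe sets of Jchain and 6 other genes of antibody-secreting cells, 11 passed the floor on at least 1 array, 4 of them brighter in the null pool and 7 in the wild-type pool. Mzb1, a chaperone of these cells, had 213 and 193, Derl3, a protein of their endoplasmic reticulum, had 303 and 216, and the 4 probe sets of Xbp1, their secretory transcription factor, had ratios from 0.907 to 1.09. Sdc1, their surface proteoglycan, read 294 and 289.5 in its brightest probe set, and Tnfrsf17, their surface receptor, was under the floor on both arrays. These values come from 1 pool per genotype with no replicate.

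A probe set shared by Chil3 and its near-identical relative Chil4 read 64.7 in the pool labelled wild-type and 227 in that labelled null, 1.24 times the floor. It entered no gene value because it carries both symbols. The probe set of Chil4 alone read 41.8 and 33.9, under the floor on both arrays.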
